A study of Mus musculus with 14 samples.

Results

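The collagen genes are 43 loci whose symbols follow the pattern *Col* number *a* number, out of 23152 loci in the RNA-seq tables. The rule that defines them uses the symbol and no measured value, and it leaves out *Col17a1*, which has the same symbol pattern and was not analysed here. Of these, 42 were named through their RefSeq accessions and 1, *Col12a1*, through its position on the mm9 genome. In at least 1 of the 11 RNA-seq libraries, 38 of them were above 1 FPKM, the level set here for calling a gene expressed. FPKM gives the sequenced fragments of a transcript relative to its length and to the number of fragments in the library, so that levels of different genes can be compared. The other 5 (*Col19a1*, *Col4a3*, *Col4a4*, *Col6a4* and *Col6a5*) stayed below it everywhere, with *Col19a1* the nearest at 0.958 FPKM in spinal column.

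Collagens are secreted or membrane proteins built from chains that wind into a triple helix. Fibrillar collagens give bone, tendon, skin and cartilage their tensile strength, fibril-associated collagens coat those fibrils, type IV collagen forms the sheet of every basement membrane, and type VI collagen makes fine beaded filaments around cells. Connective tissue cells (fibroblasts, osteoblasts and chondrocytes) make most of the fibrillar chains, whereas neurons make few of them, and in the nervous system collagens lie mainly in the meninges, in vessel walls and at nerve endings. By these roles the genes fall into 11 fibrillar, 9 fibril-associated, 6 type VI, 6 type IV, 3 hexagonal network, 2 multiplexin, 3 transmembrane and 3 other members.

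The study asked what TAF9B, a TBP-associated factor, does when mouse embryonic stem (ES) cells become motor neurons. The ES cells were of C57BL/6 background, a wild type (WT) JM8 clone and a *Taf9b* knockout (KO) clone, Taf9b_BG10, in which a reporter and selection cassette takes the place of the coding exons; each genotype was thus 1 clone. Both lines had been kept on a layer of mouse embryonic fibroblasts whose growth was blocked, and were then cultured as embryoid bodies (EBs) with retinoic acid and the smoothened agonist SAG, a treatment that all EB libraries share. Libraries labelled WT and KO cover ES cells and EBs at days 2, 4 and 6, the EBs at day 4 being named neuronal progenitors and those at day 6 motor neurons in the labels. For tissue there is newborn spinal column labelled WT and KO, taken as whole lumbar pieces from littermates, and newborn spinal cord labelled WT. How many animals stand behind a tissue library is not given in the sources used here. Binding data are TAF9B and RNA polymerase II (POL2) peak lists from WT EB motor neurons after 8 days of differentiation, made from the HBG3 clone, which carries GFP under the *Mnx1* promoter.

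Every condition has 1 library, so no value below has a replicate error and no difference was tested. Read depth is unknown, because the tables hold FPKM and no counts. The targeted gene did not follow the labels in culture. *Taf9b* stood between 0.516 and 1.96 FPKM in the 4 culture libraries labelled WT and between 3.06 and 4.27 FPKM in the 4 labelled KO, and only spinal column had the order of its labels, with 6.65 FPKM for WT and 3.31 for KO. The reads over the deleted exons cannot be singled out in these values, and the libraries are therefore called by their labels. Neuron markers (6 genes) summed to 797 FPKM in EBs of day 6 labelled WT and to 107 FPKM in those labelled KO.

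In spinal column the collagen genes were led by the chains of type I and type III collagen, the main fibrils of bone and skin. *Col1a1*, the α1 chain of type I, reached 1423 FPKM under the WT label and 753 FPKM under the KO label. *Col1a2*, its α2 partner, stood at 1017 and 826 FPKM, and *Col3a1*, the only chain of type III, at 495 and 543 FPKM. These 3 genes made up 69.8% of the summed FPKM of all 43 in the library labelled WT and 69.4% in that labelled KO. Behind them came the type VI chains *Col6a2* (212 and 174 FPKM) and *Col6a1* (187 and 152 FPKM), then *Col2a1*, the cartilage fibril chain, at 156 and 83.6 FPKM. *Col4a1*, the main type IV chain, followed at 128 and 83.5 FPKM. Collagen transcripts took 0.809% of all FPKM in spinal column labelled WT and 0.402% in that labelled KO, against 0.111% in spinal cord. Both parts of this share differed between the column libraries. Collagen FPKM summed to 4203 labelled WT and 3060 labelled KO, while FPKM of all loci summed to 519726 and 761155.

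Among the 38 expressed members, 30 had their highest level in a spinal column library, 25 of them in the one labelled WT. Over all 15965 loci above 1 FPKM in some library, 22.5% were highest in a spinal column library, 6.18% in the one labelled WT, 21.0% in spinal cord and 56.5% in culture. The libraries compared in this way stand in tables that the authors normalized separately. Spinal cord was highest for 4, namely *Col23a1* and *Col25a1*, which code for membrane-spanning collagens, and the type IV chains *Col4a5* and *Col4a6*. Culture was highest for the other 4 members. *Col18a1*, a basement membrane multiplexin and the source of endostatin, and *Col13a1*, a membrane collagen of the neuromuscular junction, peaked in EBs of day 6 labelled KO at 118 and 2.79 FPKM. *Col8a1*, a network collagen of vessel walls, peaked in the ES cells labelled KO (14.9 FPKM, against 13.4 FPKM in those labelled WT), and *Col7a1*, the anchoring fibril collagen of skin, in the ES cells labelled WT at 1.10 FPKM.

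**Figure D1:**
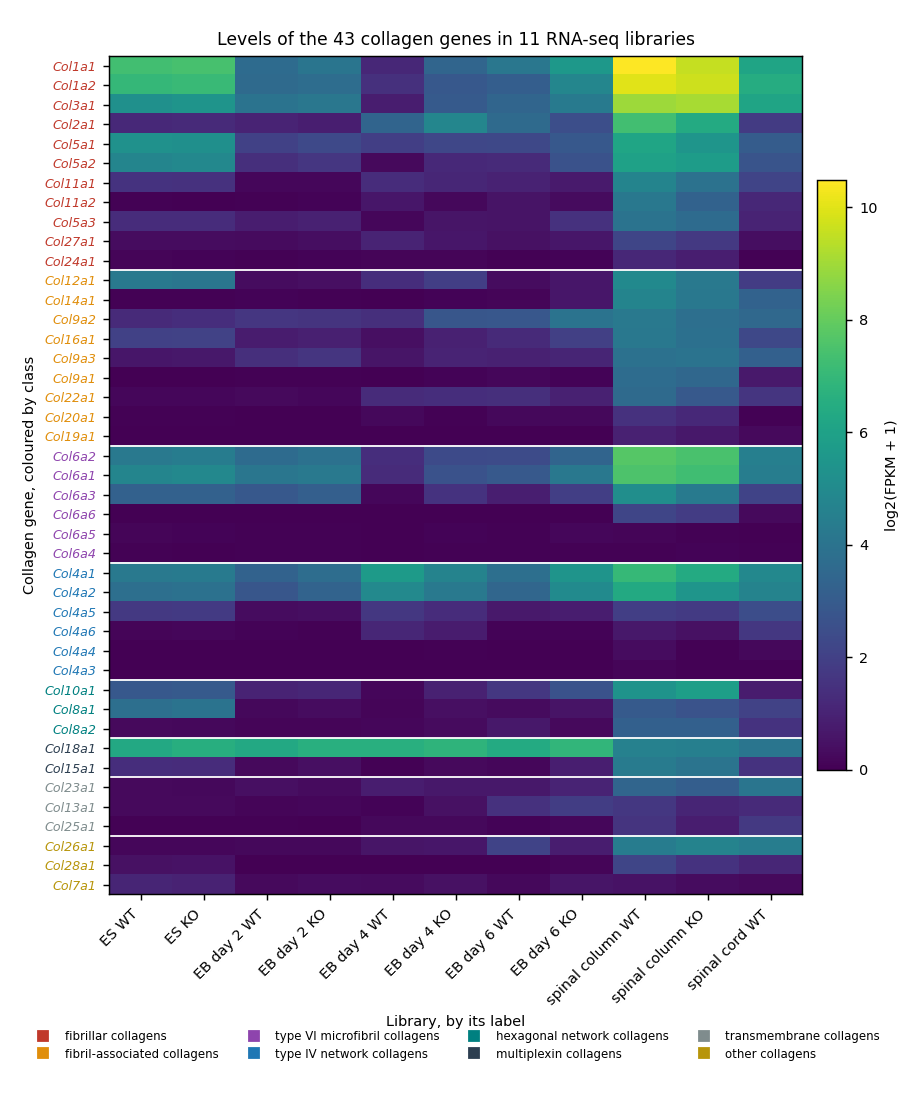
FPKM of each collagen gene (rows, grouped and coloured by class) in each RNA-seq library (columns, 1 library a condition), as colour on a log2(FPKM + 1) scale. The spinal column libraries hold the brightest rows, up to 1423 FPKM for Col1a1, while Col18a1 is nearly even across the culture libraries, from 79.1 to 118 FPKM.

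Spinal column, which includes the vertebrae and muscle, and spinal cord without them could be set side by side for the libraries labelled WT. These too come from separate tables. Of 37 members above 1 FPKM in either tissue, 28 were more than 2-fold higher in spinal column and 1 was more than 2-fold lower. Over all 14201 loci above that level, 17.3% were higher and 16.0% lower by the same limit. Of the 37, 6 were above 1 FPKM in spinal column alone. The median log2 ratio, column over cord, was 2.88 for the members and -0.08 for all loci. All 11 fibrillar and all 4 expressed type VI members were past 2-fold in spinal column. The widest gaps were those of *Col2a1*, at 156 against 2.52 FPKM, and of *Col10a1*, the collagen of hypertrophic cartilage, at 40.6 against 0.741 FPKM. *Col1a1* differed 20.7-fold between the tissues (1423 against 68.9 FPKM).

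The fibril-associated members split. *Col9a1*, a cartilage gene, was 17.9-fold higher in spinal column (11.9 against 0.661 FPKM), and *Col12a1*, a coat of tendon and bone fibrils, 11.5-fold higher (30.6 against 2.67 FPKM). The partner chains of *Col9a1* in type IX collagen were closer in the tissues. *Col9a2* stood at 18.0 and 10.7 FPKM, and *Col9a3* at 13.9 and 8.28 FPKM. *Col20a1*, also fibril-associated, and *Col24a1*, a fibrillar member, had ratios of 33.3 and 28.8 on very low cord values, 0.0539 and 0.0441 FPKM.

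*Col4a6* was the member past 2-fold in the other direction, at 2.28 FPKM in cord and 0.583 FPKM in column. Its head-to-head neighbour *Col4a5* stood at 4.54 and 2.84 FPKM. *Col23a1* (16.0 FPKM in cord and 9.77 in column), *Col25a1* (2.38 and 1.97) and *Col26a1* (20.9 and 20.1 FPKM) lay within 2-fold. Markers of the tissues differed alongside. Bone-forming cell markers, 7 genes, summed to 154 FPKM in column and 9.43 FPKM in cord, and the sum of the 7 cartilage markers was 5.15 times as high in column. In bulk tissue, fewer cells of a type and less RNA per cell cannot be told apart.

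**Figure D2:**
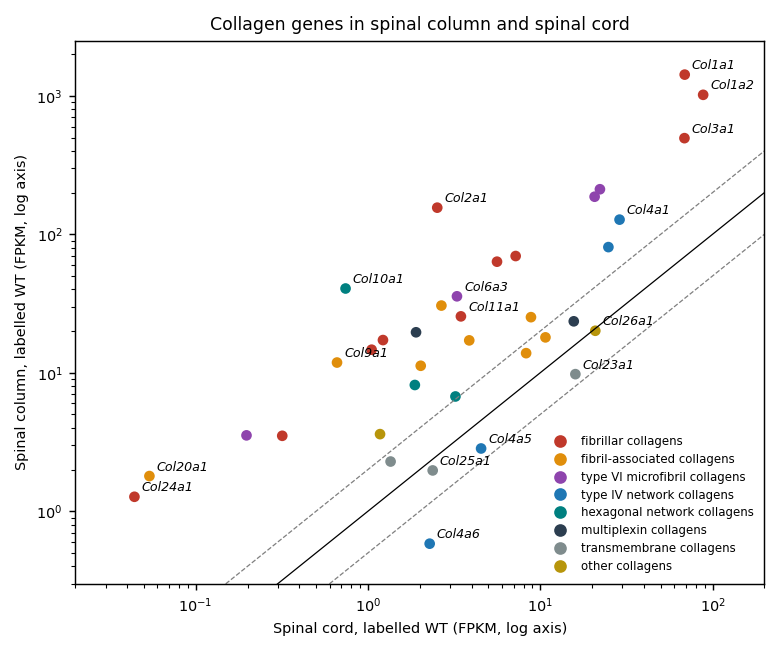
FPKM of the expressed collagen genes in spinal cord (horizontal, log axis) and spinal column (vertical, log axis), both labelled WT, 1 library each. The solid line marks equal levels and the dashed lines 2-fold. Of the 37 points, 28 lie above the upper dashed line and only Col4a6 lies below the lower one.

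Spinal cord also shares a table with ES cells labelled WT. Of 33 members expressed there, 12 were more than 2-fold higher and 9 more than 2-fold lower in cord, where all loci gave 30.4% and 35.7%. Of the 12, all but *Col9a2* were below 1 FPKM in ES cells, so that 11 were counted only through cord. With both libraries scaled to the same FPKM sum the split was 18 higher and 7 lower, beside 39.1% and 24.6% of all loci, a scaling that moved the median of all loci from -0.26 to 0.37 on the log2 scale. *Col14a1*, a fibril-associated collagen of soft connective tissue, had the largest ratio, 8.83 FPKM in cord against 0.0558 in ES cells. *Col26a1* was at 20.9 against 0.166, *Col23a1* at 16.0 against 0.216, *Col25a1* at 2.38 against 0.0595 and *Col11a2* at 1.22 against 0.0534 FPKM. The lower members were led by *Col10a1* (0.741 against 6.90 FPKM), *Col12a1* (2.67 against 19.3), *Col5a1* (7.20 against 42.3), *Col7a1* (0.218 against 1.20) and *Col18a1* (15.7 against 86.2).

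In culture some of the fibrillar genes began high. ES cells labelled WT had 158 FPKM of *Col1a1*, 126 of *Col1a2*, 38.8 of *Col5a1*, which sets fibril diameter, and 37.0 of *Col3a1*. ES cells labelled KO had 170, 134, 36.6 and 42.2 FPKM of the same genes. Of the other fibrillar members, *Col5a2* had 26.3 FPKM in ES cells labelled WT. The rest were below 2 FPKM there, from *Col11a2* at 0.049 to *Col11a1* at 1.88 FPKM. None of 22 members differed by 2-fold between the pair, with log2 ratios from -0.16 to 0.25. All loci had 0.540% higher and 0.590% lower. The fibroblast markers were present in both ES libraries, with the 9 genes summing to 80.9 and 93.5 FPKM and *Prrx1*, a mesenchymal transcription factor, at 15.3 and 17.4 FPKM.

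The levels of the type I and type III chains then fell away in EBs. *Col1a1* went to 11.6 FPKM at day 2 and 1.23 FPKM at day 4 in the libraries labelled WT, 128-fold below ES cells, and stood at 17.0 FPKM at day 6. *Col3a1* followed with 15.1, 0.776 and 9.61 FPKM. *Col6a3*, the long chain of type VI, kept 6.31 FPKM at day 2, was down to 0.126 at day 4 and had 0.819 at day 6. Not all fibrillar members fell. Under the WT label *Col27a1* (0.290 and 1.09 FPKM), *Col11a2* (0.049 and 0.549), *Col24a1* (0.0898 and 0.0939) and *Col2a1* (given below) were higher at day 4 than in ES cells. Of 28 members expressed in this course, 14 were lower at each step to day 4 and higher again at day 6, a course taken by 12.7% of all loci. Under the KO label 11 of 25 members and 12.4% of all loci took it. The fibroblast marker sum took the same course, from 80.9 to 37.7, 5.08 and 39.4 FPKM. So did the sums of the pluripotent markers (1342, 1040, 30.1 and 342 FPKM), the neuron markers (168, 94.1, 29.3 and 797 FPKM) and the bone-forming cell markers (55.5, 29.4, 16.5 and 78.7 FPKM). *Alpl* made up most of the bone sum (54.6, 28.7, 16.1 and 78.1 FPKM), and the other bone markers were below 1 FPKM throughout. In the neuron list only *Stmn2* (133.5, 56.1, 7.19 and 180 FPKM) was lower at each step to day 4. *Elavl3* (2.30, 2.75, 3.29 and 20.6 FPKM) and *Rbfox3* rose at each step. The part of these markers in the collagen levels was not tested.

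Type IV and type II collagen took another course. From ES cells through days 2, 4 and 6 of the WT label, *Col4a1* had 17.9, 8.78, 50.7 and 13.0 FPKM and *Col4a2* 13.2, 5.90, 29.3 and 10.1 FPKM. Both were thus highest at day 4, where *Col1a1* and *Col3a1* were lowest. *Col2a1* went from 1.30 and 1.08 FPKM in ES cells and at day 2 to 9.30 at day 4 and 11.2 at day 6. *Col18a1* was the leading collagen gene of all EB libraries and varied least of these, between 79.1 and 97.3 FPKM under the WT label. At day 4 labelled WT, *Col18a1* alone made up 46.1% of the collagen FPKM and the fibrillar class 9.18%.

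**Figure D3:**
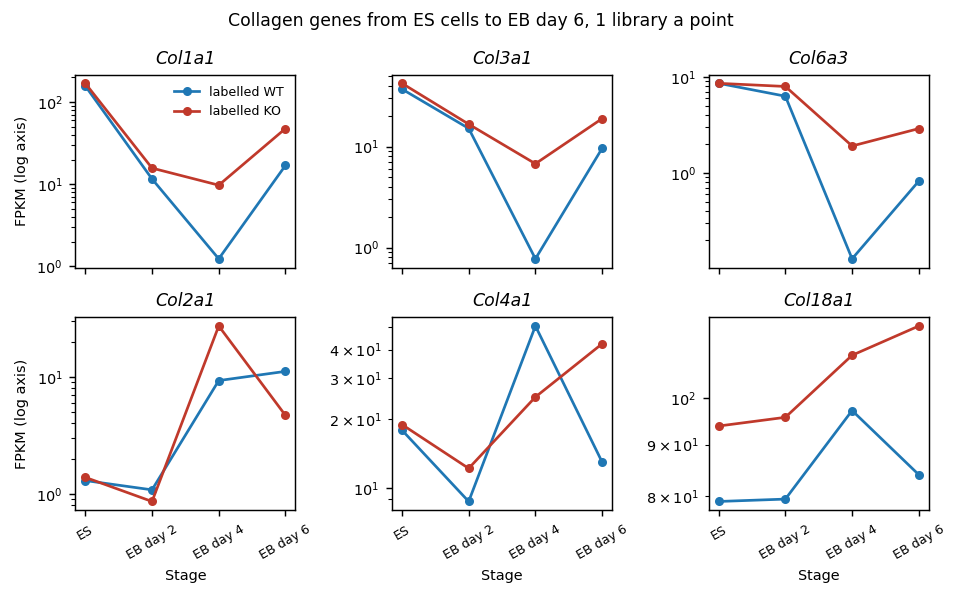
FPKM (log axis, its range set for each gene) of 6 collagen genes in ES cells and EBs, with 1 library a point, in blue for libraries labelled WT and red for those labelled KO. Col1a1, Col3a1 and Col6a3 dip to 1.23, 0.776 and 0.126 FPKM at day 4 labelled WT, while Col4a1 peaks there at 50.7 FPKM.

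At day 2 the paired libraries stood close. None of 15 members was past 2-fold, and of all loci 1.19% were higher and 1.40% lower. The ratios were nonetheless mostly above 0, for 13 of 15, with a member median of 0.27 on the log2 scale beside 0.002 for all loci. The extremes were *Col4a2* at 5.90 FPKM labelled WT and 9.01 labelled KO, and *Col2a1* at 1.08 and 0.860 FPKM.

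By day 4 the gap was wide. Of 20 members above 1 FPKM, 10 were more than 2-fold higher in the library labelled KO and 1 was more than 2-fold lower. Among all 12560 loci the shares were 12.1% higher and 4.43% lower. The member median was 0.93 on the log2 scale, against -0.03 for all loci. Of the 20 members, 4 were below 1 FPKM under the WT label and counted only through the other library. All 4 (*Col6a3*, *Col3a1*, *Col5a2* and *Col9a3*) are among the 10 higher ones. The remaining 23 of the collagen genes were below 1 FPKM in both libraries.

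The higher members were of the fibrillar, type VI and fibril-associated classes. *Col6a3* had the largest ratio (0.126 FPKM labelled WT and 1.90 labelled KO, 15.1-fold). *Col3a1* stood at 0.776 and 6.76 FPKM (8.71-fold), *Col1a1* at 1.23 and 9.74 (7.89-fold) and *Col5a2*, a minor chain of type I fibrils, at 0.188 and 1.30 FPKM (6.88-fold). *Col1a2* was at 1.72 and 6.44 FPKM and *Col2a1* at 9.30 and 27.3 FPKM. The table marks the comparison of *Col2a1* as FAIL, meaning that the authors' program could not compute its test, and *Col2a1* was the only member so marked. *Col6a1* stood at 1.44 and 5.16 FPKM, *Col6a2* at 1.57 and 4.06, *Col9a2* at 1.67 and 6.04, and *Col9a3* at 0.513 and 1.05 FPKM. Of the 10 values labelled WT, 9 lie under 2 FPKM, and *Col5a2*, *Col6a2* and *Col9a3* were no longer past 2-fold with 1 FPKM added to both values.

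All 4 expressed type IV genes had a ratio below 0 at day 4, beside 52.3% of all loci. So had the fibrillar *Col27a1* (1.09 FPKM labelled WT and 0.548 labelled KO) and *Col11a1* (1.48 and 1.16), which makes 6 of the 20 members. *Col4a1* was at 50.7 FPKM labelled WT and 24.9 labelled KO, just past 2-fold, and *Col4a2* at 29.3 and 17.6 FPKM. *Col4a5* (2.22 and 1.52) and *Col4a6* (1.18 and 0.752) were lower by less than 2-fold. *Col4a6* and *Col27a1* were above 1 FPKM under the WT label alone. The call of *Col4a1* was lost with ratios centred on the median of all loci, where its log2 ratio was -0.99 in place of -1.02. *Col18a1* differed little, at 97.3 and 110 FPKM.

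Markers of other cells also differed at day 4. Of 5 expressed neuron markers 2 were past 2-fold lower under the KO label, *Elavl3* (3.29 and 1.405 FPKM) and *Elavl4* (2.73 and 0.880), but neither with 1 FPKM added. The others were within 2-fold, *Tubb3* and *Stmn2* higher and *Rbfox3* lower. Of the expressed bone and muscle markers, *Alpl* (16.1 and 60.3 FPKM) and *Tnnt3* (0.131 and 2.00) were past 2-fold higher and *Acta1* was within 2-fold. The 9 fibroblast markers summed to 5.08 FPKM labelled WT and 21.5 labelled KO, with *Prrx1* at 0.288 and 1.13 FPKM and *Lum* at 0.0565 and 1.35 FPKM. All 9 were more than 2-fold higher, but 8 were below 1 FPKM under the WT label and so were counted only through the other library, and with 1 FPKM added 4 were past 2-fold. All 5 pluripotent cell markers were past 2-fold with and without 1 FPKM added, summing to 30.1 and 180 FPKM. The endothelial markers, 5 genes, summed to 2.21 and 8.96 FPKM, most of it *Pecam1*. Of 4 expressed cartilage markers 2 were past 2-fold higher, *Comp* at 0.373 and 1.35 FPKM and *Hapln1* at 0.153 and 1.21 FPKM, but neither with 1 FPKM added. Both were counted only through the library labelled KO. Within 2-fold, *Matn3* was lower (2.00 and 1.08 FPKM) and *Sox9* higher (1.025 and 1.435 FPKM). Of 5 expressed endoderm markers 1 was past 2-fold, *Gata4* at 1.44 and 5.34 FPKM, with *Gata6* (2.38 and 1.46) and *Pth1r* (16.5 and 10.1) lower by less than 2-fold. Their part in the collagen ratios was not tested.

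At day 6 the higher members were 12 of 22 and the lower ones 2, beside 10.5% and 9.93% of all loci. Of the 22, 4 were above 1 FPKM under the KO label alone, and *Col26a1*, *Col22a1* and *Col11a1* under the WT label alone. The median log2 ratio was 1.14 for the members and -0.003 for all 13006 loci. *Col5a3* had the largest ratio (0.452 FPKM labelled WT and 1.79 labelled KO), followed by *Col5a2* (1.39 and 5.24), *Col6a3* (0.819 and 2.89), *Col1a2* (7.83 and 26.8) and *Col4a1* (13.0 and 42.4 FPKM). *Col4a2* stood at 10.1 and 31.2 FPKM, so the pair that was lower at day 4 was higher here. *Col1a1* had 17.0 and 47.7 FPKM, and the 3 type VI chains were all past 2-fold.

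The lower members at day 6 were *Col26a1*, a small collagen-domain protein of the matrix, at 3.30 FPKM labelled WT and 0.806 labelled KO, and *Col2a1* at 11.2 and 4.68 FPKM. Among those within 2-fold, *Col22a1* had 1.64 and 0.961 FPKM and *Col11a1* 1.02 and 0.695 FPKM. All 6 neuron markers were more than 2-fold lower in the library labelled KO, *Tubb3* being at 561 and 41.4 FPKM. The fibroblast markers summed to 39.4 and 74.9 FPKM, with 5 of 9 past 2-fold, and the pluripotent markers to 342 and 886 FPKM. The endothelial markers summed to 7.62 and 22.5 FPKM, with both expressed ones past 2-fold higher, *Pecam1* at 6.25 and 19.4 FPKM and *Cdh5* at 0.159 and 1.44 FPKM. *Pecam1* was also at 15.4 FPKM in ES cells labelled WT. Whether these shifts in cell markers bear on the collagen ratios was not tested.

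**Figure D4:**
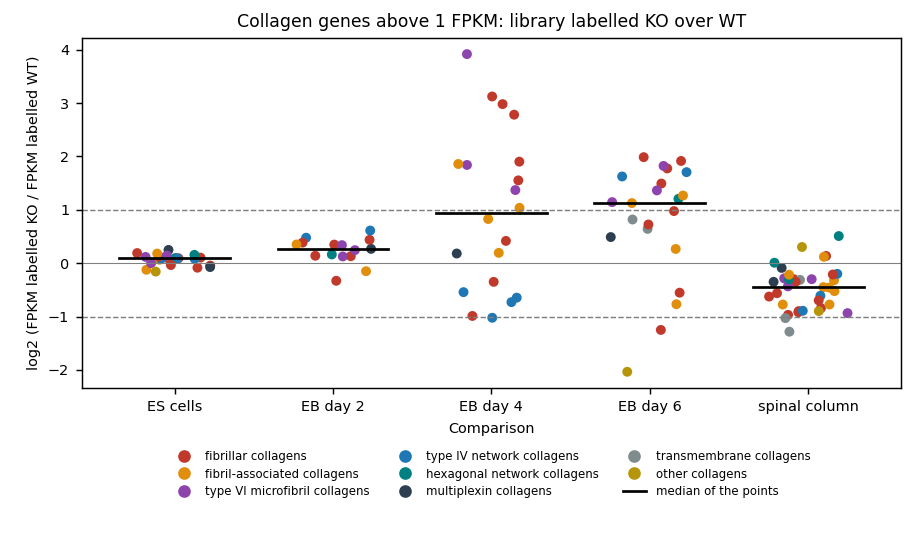
Log2 ratio of FPKM, library labelled KO over library labelled WT, for each collagen gene above 1 FPKM in either, coloured by class, with the median of the points as a black bar and 2-fold as dashed lines. The medians are 0.09, 0.27, 0.93, 1.14 and -0.44 from ES cells to spinal column, and the spread is narrow in ES cells and at day 2.

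The genes of collagen making and handling could be read beside the chains. Of 17 enzymes and chaperones of collagen synthesis and folding, 15 were expressed at day 4 and none was past 2-fold. All loci had 12.1% higher and 4.43% lower. *Serpinh1*, the collagen chaperone HSP47, stood at 72.4 FPKM labelled WT and 138 labelled KO, *Plod1*, a lysyl hydroxylase, had the highest log2 ratio of 0.96 and *P4ha1*, a prolyl hydroxylase subunit, the lowest of -0.91. At day 6 all 15 were again within 2-fold, beside 10.5% of all loci higher and 9.93% lower.

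Among the proteins that act on the fibrils, 2 of 4 expressed cross-linking enzymes were more than 2-fold higher at day 4, beside 12.1% of all loci, but neither with 1 FPKM added. These were *Lox*, at 0.263 FPKM labelled WT and 1.26 labelled KO, and *Loxl1*, at 1.03 and 2.95 FPKM. *Loxl2* had the lowest ratio of that list, at 13.5 and 9.73 FPKM. *Pcolce*, an enhancer of procollagen cleavage, had 1.07 and 5.75 FPKM, while *Adamts3*, which trims fibrillar procollagens, was lower at 2.60 and 0.805 FPKM. Of the small proteoglycans that bind fibrils, 3 of 4 were higher, all of them below 1 FPKM under the WT label. These were *Lum* (given above), *Dcn* at 0.329 and 6.03 FPKM and *Bgn* at 0.669 and 5.88 FPKM, while *Omd* was at 16.4 and 10.2 FPKM. *Lum* and *Dcn* also stand in the fibroblast list.

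Matrix proteases and basement membrane partners were mostly higher under the KO label at day 4. All 3 expressed proteases and 8 of 9 partners had a ratio above 0, where 52.3% of all loci were below 0. *Mmp9*, a gelatinase, stood at 0.193 FPKM labelled WT and 2.53 labelled KO at day 4, and *Mmp14*, a membrane-bound collagenase, at 3.20 and 11.2 FPKM, while *Mmp2*, another gelatinase, had 10.3 and 15.4 FPKM. At day 6 all 4 expressed collagenases and gelatinases were past 2-fold higher, beside 10.5% of all loci, led by *Mmp13* (0.320 and 1.70 FPKM), which was above 1 FPKM under the KO label alone. Among basement membrane partners of type IV collagen, 4 of 9 were past 2-fold higher at day 4 and 1 past 2-fold lower, where all loci had 12.1% and 4.43%. *Hspg2*, which encodes perlecan, had 6.01 and 28.4 FPKM, and *Lama1*, the laminin chain of early embryos, 16.9 and 7.84 FPKM, the latter in the direction of *Col4a1*. The collagen receptors *Itgb1* (71.4 and 82.1 FPKM) and *Ddr1* (14.4 and 22.6 FPKM) were the expressed members of their list at day 4, both within 2-fold.

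In spinal column no collagen gene was more than 2-fold higher in the library labelled KO, and 2 of 36 were more than 2-fold lower, where all 14249 loci had 9.05% higher and 8.51% lower. *Col25a1*, a membrane collagen of neurons, stood at 1.97 FPKM labelled WT and 0.809 labelled KO, and *Col13a1* at 2.28 and 1.12 FPKM. Both values are low, and neither gene was past 2-fold with 1 FPKM added. Most other members were lower by less than 2-fold, so that 31 of 36 had a log2 ratio below 0, beside 46.7% of all loci, and the member median was -0.44 beside 0.06.

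The members nearest to the 2-fold limit were *Col11a2*, at 17.2 and 8.79 FPKM, *Col6a3*, at 35.7 and 18.6 FPKM, and *Col1a1*, at 1423 and 753 FPKM. Higher under the KO label were *Col10a1* (40.6 and 57.7 FPKM), *Col26a1* (20.1 and 24.8), *Col3a1* (495 and 543), *Col9a3* (13.9 and 15.1) and, barely, *Col8a2* (8.16 and 8.20). The proportion of the type I chains differed between the libraries. The ratio of *Col1a1* to *Col1a2* was 1.40 in the library labelled WT and 0.912 in that labelled KO, with values between 0.716 and 2.17 over all libraries.

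Transcript length moved with these ratios. With all loci of spinal column split into 10 groups of like transcript length, the median log2 ratio ran from 0.81 in the group with the shortest transcripts (median 896 nt) to -0.77 in that with the longest (median 7646 nt). The shortest and longest groups at day 4 had -0.12 and 0.09. Collagen transcripts are long, with a median of 5794 nt for the 36 members against 2962 nt for all loci tested, and 25 of the members fell in the longest 2 groups. Set against loci of like length, the member median was 0.07, with 16 members below the median of their group and 20 above. *Col13a1* kept a log2 ratio of -1.02 on that scale and *Col25a1* had -0.51.

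**Figure D5:**
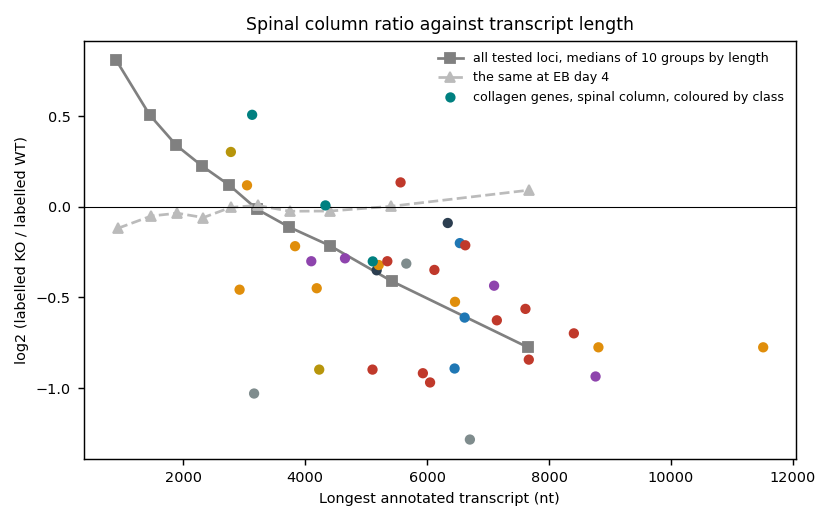
Log2 ratio in spinal column, library labelled KO over library labelled WT, against the longest annotated transcript in nt, for the 36 expressed collagen genes (points, coloured by class) and for all loci as medians of 10 groups by length (grey squares). The squares go from 0.81 to -0.77 and most collagen genes lie near them. The light triangles give the same groups at EB day 4, from -0.12 to 0.09.

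The whole distribution of spinal column also depends on scaling. FPKM of all loci summed to 519726 in the library labelled WT and to 761155 in that labelled KO, and scaling both to the same sum moved the median of all loci from 0.06 to -0.49 and the number of collagen genes past 2-fold lower from 2 to 17. The share of all loci past 2-fold lower went from 8.51% to 24.3% with it. No member had the status HIDATA, which marks loci with too many reads to be processed. Among muscle markers, *Acta1* had it, and is listed at 0 in both column libraries, and so had *Ckm*, listed at 0 in the library labelled KO and at 3407 FPKM in the other.

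Genes of collagen synthesis and folding stood mostly higher in spinal column labelled KO. Of 17, 13 had a log2 ratio above 0 and 4 below, where 46.7% of all loci were below 0. Against loci of like length 6 were below. *Ppib*, a prolyl isomerase, was at 260 FPKM labelled WT and 493 labelled KO and *Serpinh1* at 238 and 382 FPKM. The median transcript of that list has 2861 nt, and its median ratio was 0.32, or 0.09 against loci of like length. Basement membrane partners, with a median of 6046 nt, were below 0 for 10 of 11, beside 46.7% of all loci, and 4 were past 2-fold lower, beside 8.51%. *Lama1* had 1.01 and 0.275 FPKM, and *Hspg2* 17.4 and 5.28 FPKM. Against loci of like length 9 of 11 remained below, with a median of -0.33. *Lum* was the only fibril-binding proteoglycan past 2-fold, at 34.4 and 77.6 FPKM.

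The remaining lists had no member past 2-fold in spinal column. Procollagen processing ran from *Adamts3* (1.45 FPKM labelled WT and 0.829 labelled KO) to *Pcolce2* (4.83 and 7.30), and the cross-linking enzymes from *Lox* (96.0 and 79.7) to *Loxl1* (20.8 and 25.7 FPKM). The collagen receptors ran from *Itga11*, an integrin chain of fibroblasts, at 2.58 and 1.47 FPKM, to *Itgb1* at 118 and 127 FPKM. All 5 collagenases and gelatinases had a ratio below 0, from *Mmp9* (130 and 89.9 FPKM) to *Mmp13* (81.4 and 80.5 FPKM), and all 5 were also below loci of like length, with the median going from -0.16 to -0.28. Of the cell markers, those of neurons summed to 688 FPKM labelled WT and 441 labelled KO, and those of fibroblasts to 733 and 897 FPKM. In the fibroblast list *Dcn* (163 and 276 FPKM) and *Lum* carried most of that gap, while *Thy1* (60.7 and 48.4), *Pdgfra* (24.7 and 15.6) and *Pdgfrb* (11.9 and 8.03) had ratios below 0, and the list's median against loci of like length was 0.11. The bone-forming cell markers summed to 154 and 218 FPKM, most of it *Ibsp*, a bone matrix protein, at 109 and 168 FPKM. *Runx2*, the transcription factor of bone formation, was just past 2-fold lower at 2.43 and 1.21 FPKM, and *Dmp1*, an osteocyte gene, had 8.90 and 6.70 FPKM. The median log2 ratio of the bone list was 0.13, or -0.20 against loci of like length. The part of these markers in the collagen ratios was not tested.

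Several collagen genes lie beside each other. *Col4a1* and *Col4a2* on chromosome 8 are divided by 2 bp in the tables and point apart, and their ratio to each other stayed between 1.16 and 1.92 in all 11 libraries, although the level of *Col4a1* ranged from 8.78 to 128 FPKM. *Col6a1* and *Col6a2* on chromosome 10, 85387 bp apart, kept a ratio of 0.873 to 1.82. By contrast *Col3a1* and *Col5a2* on chromosome 1, 24624 bp apart and facing each other, had ratios from 1.41 to 12.2. *Col4a5* and *Col4a6* on chromosome X, which lie head to head with 1342 bp between them, ranged from 1.88 to 22.9. *Col4a3* and *Col4a4*, 71 bp apart on chromosome 1, were below 1 FPKM in all libraries.

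In the EB motor neurons of day 8, TAF9B peaks lay within 500 bp of a transcription start site (TSS) at 5 of the 43 collagen genes. That share, 11.6%, stands beside 21.0% of 19957 protein-coding genes. POL2 had a peak at 1 collagen gene, *Col18a1*, where all genes had 34.6%. The POL2 peak of *Col18a1*, the leading collagen gene of the EB libraries, lay 168 bp downstream of the TSS at chr10:76628849-76629401 with a score of 171, and the nearest TAF9B peak lay 187000 bp upstream of the gene.

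The TAF9B peaks were at *Col25a1* (187 bp upstream, score 193), *Col11a1* (71 bp upstream, score 89.9), *Col12a1* (46 bp upstream of an internal TSS and 0.156 kb inside the gene, score 89.1), *Col4a5* (23 bp upstream, score 77.9) and *Col23a1* (382 bp downstream, score 71.4), on a list whose median score is 83.3. None of these genes was above 2 FPKM in EBs of day 6, and *Col25a1* was at 0.0738 FPKM labelled WT and 0.137 labelled KO. The peak lists come from EBs of day 8 and of the HBG3 clone, and so differ in both day and clone from the RNA-seq libraries. The 200 bases upstream of the furthest 5′ TSS in the GENCODE vM1 annotation are shown for *Col25a1*, which has the highest score, for *Col11a1* and for *Col4a5*, in the direction of transcription on mm9. The locus in the RNA-seq tables starts at that TSS for *Col11a1* but 46 bp upstream of it for *Col25a1*, so that the last 46 bases of the *Col25a1* window lie inside the locus. Capitals mark GGGCGG, a GC box, and CCAAT, each on either strand.
Col25a1, chr3:129883609-129883808, plus strand: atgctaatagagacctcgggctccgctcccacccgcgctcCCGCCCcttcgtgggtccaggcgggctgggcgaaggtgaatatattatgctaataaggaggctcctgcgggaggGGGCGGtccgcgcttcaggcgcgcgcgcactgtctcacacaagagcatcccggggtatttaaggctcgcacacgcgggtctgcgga
Col11a1, chr3:113733258-113733457, plus strand: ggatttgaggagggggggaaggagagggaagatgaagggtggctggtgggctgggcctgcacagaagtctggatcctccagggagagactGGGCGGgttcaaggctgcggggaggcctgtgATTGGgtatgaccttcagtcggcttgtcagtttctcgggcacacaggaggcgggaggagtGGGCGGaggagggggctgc
Col4a5, chrX:137909728-137909927, plus strand: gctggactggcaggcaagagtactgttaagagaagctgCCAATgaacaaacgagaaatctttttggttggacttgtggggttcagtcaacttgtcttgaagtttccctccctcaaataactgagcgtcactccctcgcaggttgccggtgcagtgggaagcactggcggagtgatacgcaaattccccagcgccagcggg

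*Col25a1* and *Col11a1* held GGGCGG at 2 places each and *Col11a1* and *Col4a5* a CCAAT match each, whereas TATAAA was in none of the 3 windows. Over 19953 windows of the same length upstream of protein-coding genes, GGGCGG was in 41.4%, CCAAT in 31.1% and TATAAA in 9.52%. A match of letters does not show a bound site.

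Inside the bodies of collagen genes, 9 TAF9B peaks fell in 7 genes, and 2 of these are the exonic peaks of *Col12a1* and *Col23a1* given above. The share of all genes with a peak inside was not counted, so whether 7 is many or few cannot be said. The highest score was that of a peak in an intron of *Col2a1*, 11.6 kb from the gene start, at chr15:97823337-97823707, at 306, above 98.0% of the TAF9B list. No POL2 peak overlapped it. *Col2a1* was at 11.2 FPKM labelled WT and 4.68 FPKM labelled KO at day 6. In *Col1a1* a peak with a score of 90.6 lay in an intron 0.978 kb from the gene start, at chr11:94798390-94798643, and *Col1a1* was at 17.0 and 47.7 FPKM there. The other intronic peaks, in *Col13a1*, *Col22a1*, *Col23a1* and *Col25a1*, had scores from 52.7 to 70.6. The middle 200 bases of the first 2 peaks follow, in the direction of the gene and marked in the same way.
Col2a1, chr15:97823423-97823622, minus strand: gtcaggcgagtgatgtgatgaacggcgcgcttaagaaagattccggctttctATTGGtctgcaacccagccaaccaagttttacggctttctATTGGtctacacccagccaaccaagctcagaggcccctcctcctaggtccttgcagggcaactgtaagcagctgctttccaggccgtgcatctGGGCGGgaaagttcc
Col1a1, chr11:94798417-94798616, plus strand: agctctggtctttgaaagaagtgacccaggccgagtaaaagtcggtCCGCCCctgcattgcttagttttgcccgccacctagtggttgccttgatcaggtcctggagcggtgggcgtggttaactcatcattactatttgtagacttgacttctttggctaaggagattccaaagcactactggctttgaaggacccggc

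The window of *Col2a1* held CCAAT at 2 places on the complementary strand (ATTGG), inside repeated stretches of like sequence, and GGGCGG at 1, and that of *Col1a1* held GGGCGG at 1. In 10402 windows at the middle of TAF9B peaks, CCAAT was in 32.3% and GGGCGG in 30.9%.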

How the data were processed

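Per the labels and the study's methods, the authors mapped poly-A RNA-seq reads to RefSeq genes with TopHat and obtained FPKM with Cuffdiff, in 6 deposited tables, and called TAF9B and POL2 peaks with MACS after Bowtie mapping to mm9. The deposited score of each peak is that of MACS. Tool versions are not given in the sources used here. The tables also hold the authors' own fold changes and p-values, which were not used. The IgG control was not analysed here.

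FPKM values were used as deposited. Loci were joined on accession and position. Symbols came from RefSeq accessions (22766 loci) or, for 221 loci, from GENCODE vM1 genes with 90% reciprocal overlap, and 165 loci stayed unnamed. A locus was counted in a comparison when above 1 FPKM in at least 1 library and without status HIDATA, and called past 2-fold. Log2 ratios had no pseudocount. Transcript length was that of the longest GENCODE vM1 transcript, and loci of like length were those in the same 1 of 10 groups. A peak belonged to a TSS when its midpoint lay within 500 bp of it. Counting was tested on simulated data, with changes well past 2-fold placed only in well-expressed loci. The error of values near 1 FPKM was not covered by that test. Python 3.11.15, numpy 2.4.6 and pandas 2.3.3 were used.

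With 1 library per condition no difference was tested. A fit of label and stage over the 8 culture libraries, which would take the 4 stages as repeats of the label, was not run. Members, gene lists and tests were chosen with earlier results of these data known. Genes were named by fixed rules: the highest of each class, those past 2-fold in spinal column and at day 4, the 5 largest ratios each way elsewhere, neighbouring pairs, and the extremes of each list. Other genes named with values were chosen after their values were seen.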

Additional observations from a re-analysis of the deposited data

Results flagged for a closer look

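Among the collagen genes, 2 were past 2-fold in opposite directions at day 4 and day 6. *Col2a1* had a log2 ratio, library labelled KO over library labelled WT, of 1.55 at day 4 and of -1.25 at day 6, and its comparison at day 4 carries the status FAIL. *Col4a1* had -1.02 at day 4 and 1.71 at day 6. Its ratio at day 4 came within 2-fold with 1 FPKM added (-0.99), with centring on the median of all loci (-0.99) and with scaling to a common sum (-0.96), so that *Col2a1* alone was left under these settings. The differences between the days were not tested, since each rests on 4 libraries without replicates.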

How the results depend on the processing

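Each count was recomputed with 1 FPKM added, without the filter, above 5 FPKM, centred on the median of all loci, scaled to a common sum, with a 1.5-fold limit and, chosen after seeing the data, against loci of like transcript length. No paired analysis was possible because each comparison holds 1 library a label and so no replicates, which also leaves no library to omit. Pairing the labels over the 4 culture stages, with the stages taken as repeats, was not run. Percentages in brackets are the shares of all loci under the same setting. Without the filter the counts were 4 lower in ES cells (8.50%), 3 higher (7.79%) and 2 lower (8.48%) at day 2, 19 (22.2%) and 3 (8.57%) at day 4, 20 (19.0%) and 5 (13.4%) at day 6, and 5 lower in spinal column (14.5%), many of them near 0 FPKM. Above 5 FPKM they were 6 higher at day 4 (7.97%), 1 lower at day 6 (8.33%), 0 lower in spinal column (6.71%), 5 higher in cord over ES cells (27.0%), where the member median turned to -0.49, and 0 lower in column over cord (15.4%). With 1 FPKM added, 0 were lower at day 4 (2.89%) and 0 in spinal column (3.97%), and the higher members were 7 at day 4 (7.54%) and 8 at day 6 (6.32%). Centring or scaling left 0 lower at day 4 (4.25% and 4.06%), scaling gave 17 lower in spinal column (24.3%) and 3 lower in column over cord (25.4%), and higher in cord over ES cells were 17 with centring (33.6%) and 18 with scaling (39.1%). At a 1.5-fold limit, 1 was higher at day 2 (3.75%), 4 were lower at day 4 (12.5%), 14 in spinal column (19.2%) and 3 in column over cord (28.0%). Against loci of like length 2 were lower at day 4 (3.54%) and 1 in spinal column (5.50%), where the member median turned to 0.069. Leaving out *Col2a1*, the locus with status FAIL, gave 9 higher at day 4 (12.1%). TAF9B peaks were at 8 genes within 5 kb (27.3%), at 3 for scores above the median (13.5%) and at 4 where the peak had to overlap the TSS (16.6%), while POL2 stayed at 1. No setting changed the sign of a member called past 2-fold with the deposited values, the 1 FPKM filter and the 2-fold limit. Depth is unknown, so the error of values near 1 FPKM cannot be given.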
